A study of Mus musculus with 617 samples.

Results

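The genes described here are 9 mouse genes of retinoic acid response and handling: the receptors Rarb and Rarg, the binding proteins Crabp1 and Crabp2, the retinol transporter Stra6, the degrading enzymes Cyp26a1 and Cyp26b1, the reductase Dhrs3 and the target gene Stra8. They were chosen by symbol, matched to 1 Ensembl ID each, and are 9 of the 43628 genes in every deposited table. RNA was measured by SMART-seq2 in 617 single cells. The cultured cells came from 1 female and 1 male line of a cross of a CAST/EiJ father with a C57BL/6J mother. Each line was kept as embryonic stem (ES) cells in 2i and LIF (60 female and 51 male cells), as ES cells in serum and LIF (68 and 52), as cells named Epi in Activin A and FGF2 (79 and 63), and as embryoid bodies given retinoic acid and the smoothened agonist SAG, labelled motor neuron (39 and 35). The labels' protocol for the last says that interneurons of several kinds are made as well. A second female Epi culture, derived from female ES cells over 7 passages, gave 41 cells in a table of its own. From embryos of the same cross came 23 inner cell mass (ICM) cells of day 3.5 and 23 epiblast cells of day 4.5, both with no sex given. Epiblast cells at day 5.5 (20 female and 63 male) came from C57BL/6J parents. The motor neuron cultures are the only group whose label names added retinoic acid.

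Retinoic acid is made inside cells from retinol and binds nuclear receptors (RARs) that sit on DNA with retinoid X receptors. Many of its direct targets, among them Rarb and Cyp26a1, limit or pass on the signal themselves: CYP26 enzymes destroy retinoic acid, DHRS3 turns retinal back into retinol, and cellular binding proteins carry it within the cell. In the embryo the signal patterns the hindbrain and spinal cord, and in culture it is widely used to turn pluripotent cells into neural cells, while primitive endoderm is another well-known product of retinoic acid in embryoid bodies.

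The classical response element is a direct repeat of 6 bases with 5 bases between the copies (DR5), shown here because it was found in the listed promoters of 2 of the genes. The search covered only those short promoters, so a missing match does not set the other genes apart. RefSeq promoters of build GRCm38.p6, from 250 bases before to 50 after the start, were listed for 8 of the 9 genes (14 promoters, with none for Crabp2). Both strands were searched for pairs of copies, each copy being AGGTCA, the commonest form, or else one of the related forms GGGTCA, with another first base, AGTTCA, with another base at the third place, or, with both of these changes at once, GGTTCA. DR5 stood in 32 of 32851 promoters (0.0974%), and among the 14 listed promoters of these genes in those of Rarb and Cyp26a1. The 27-base windows below are given 5′ to 3′ on the strand of the gene, with the pair and its spacer in capitals.
Rarb: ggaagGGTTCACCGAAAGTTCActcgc
Cyp26a1: aaagaTGAACTTTGGGTGAACTaattt
The Rarb window lies at chr14:16575508-16575534 (minus strand gene), with the repeat 53 to 37 bases before the start, and in GENCODE it overlaps 2 annotated exons of Rarb, both UTR. The Cyp26a1 window lies at chr19:37697771-37697797 (plus strand gene), with the repeat 32 to 16 bases before the start and outside any GENCODE gene. On the opposite strand the Cyp26a1 repeat reads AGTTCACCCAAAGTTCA. Repeats of the same copies with 1 base between them were found in 0.222% of promoters and with 2 bases in 0.268%, in neither case in any of the 14 listed promoters of these genes. The 32 promoters belong to 31 symbols, of which 14 matched the tables.

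Counts were not used here, so read depth per cell was unknown. Cells had a median of 8122 (E3.5) to 10839.5 (E5.5 female) genes at 1 FPKM or more. Median FPKM sums per cell were 1332433 and 1478624 in the female and male motor neuron cultures and 862527 and 922930 in serum, and values after rescaling are given below. A culture was 1 sample, taken as the mean over its cells, and the 2 lines were the replicates of a state. Tests were made with limma on log2(mean FPKM + 1) over the 15504 genes that averaged at least 1 FPKM in the 8 cultures. A call required a log2 change of 1 or more in size and, after Benjamini-Hochberg adjustment, a p below 0.05. Changes on this scale understate those of genes with low values. Markers were checked against the labels. In motor neuron cells, 10 of 10 neuron markers averaged at least 1 FPKM in both lines, but so did 9 (female) and 8 (male) of 10 endoderm markers, and 8 of 8 pluripotency markers in the female culture against 3 in the male. Of 6 markers of motor neurons, 5 averaged at least 1 FPKM in the female and 4 in the male culture, and Mnx1, a defining motor neuron factor, was at 1 FPKM or more in 7.69% of female and 14.3% of male cells, and Isl1 in 43.6% and 62.9%. Of 8 trophoblast and extraembryonic ectoderm markers 5 (female) and 2 (male) averaged at least 1 FPKM, and their summed level per cell had a median of 309.9 and 418.1 FPKM (2.27 to 3375 and 0.595 to 2921), against 36.2 and 49.7 in serum (0.413 to 520.4 and 4.25 to 238.9). The male sum thus rests on few genes, with 2 of the 8 at 0. The list includes the keratins Krt8 and Krt18 and Esrrb, which is also on the pluripotency list. Of 6 decidua markers 3 and 2 averaged at least 1 FPKM, with median sums of 449 and 490.3 FPKM (0 to 2526 and 0 to 1986), against 0 in both serum cultures (0 to 60.1 and 0 to 41.7). Cryab, a small heat shock protein found in several tissues, averaged 589.5 and 570.4 FPKM of that sum, while the decidual gene Prl8a2 was at 0. Their part in the results below was not tested. The culture labelled female Epi went partly against its label. Zfp42, a marker of naive pluripotency, was at 1 FPKM or more in 98.7% of its cells, and in 0% of male Epi and 7.32% of 7-passage cells. Yet 4 of 4 primed epiblast markers averaged at least 1 FPKM in female Epi, with a median sum of 124.6 FPKM. That sum was 68.9 and 97.03 in female and male serum cells, 332.6 in male Epi and 264.7 in 7-passage cells. For calls and list counts against Epi, values with the 7-passage culture in place of female Epi are therefore given where they were computed, although that table was normalised apart. In that fit the calls of Rarb (1.96), Rarg (-1.76), Stra6 (3.96) and Crabp2 (4.12) against Epi held (adjusted p from 0.00756 to 0.0279).

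Against serum ES cells, 5 of the 8 genes tested were called in the motor neuron cultures: Stra6, Cyp26a1, Crabp2 and Rarb rose and Rarg fell. Of all 15504 genes, 32.8% were called (30.1% higher and 2.7% lower), and the median change of all genes was 0.71 on the log2 scale. Against 2i ES cells Crabp2, Cyp26a1, Stra6 and Rarb rose (4 of 8) and none fell, beside 33.5% of all genes called in either direction (29.6% higher and 3.96% lower). Against Epi cells Stra6, Crabp2 and Rarb rose and Rarg fell (4 of 8), beside 24.5% of all genes (21.9% higher and 2.6% lower). Cyp26b1 did not pass the low-value filter. Rarb and Stra6 passed it only through the motor neuron cultures, so their place among the genes tested depends on being high there. These 3 comparisons share the 2 motor neuron cultures. Both motor neuron cultures lay above all 6 others for 3 of 8 genes (Rarb, Stra6, Crabp2), beside 40.1% of all genes, and both 2i cultures lay below all 6 others for 4 (Rarb, Cyp26a1, Stra6, Crabp2), beside 13.8%. When each cell was rescaled to a sum of 1000000, 3 genes were called against serum and 2 against Epi (beside 20.5% and 15.8% of all genes), and the share of higher calls among all calls against serum moved from 91.8% to 69.05%, with a median change of all genes of 0.14. Upper-quartile scaling moved that share to 44.65% and the median change of all genes from 0.71 to -0.27, with 3 of the 9 genes called against serum and 2 against Epi (beside 21.2% and 19.6% of all genes). Against 2i that share moved from 88.2% to 70.8% and 44.7% under the 2 scalings, and against Epi from 89.4% to 52.1% and 31.04%. The direction of the 5 called changes against serum held under every scaling tried.

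**Figure D1:**
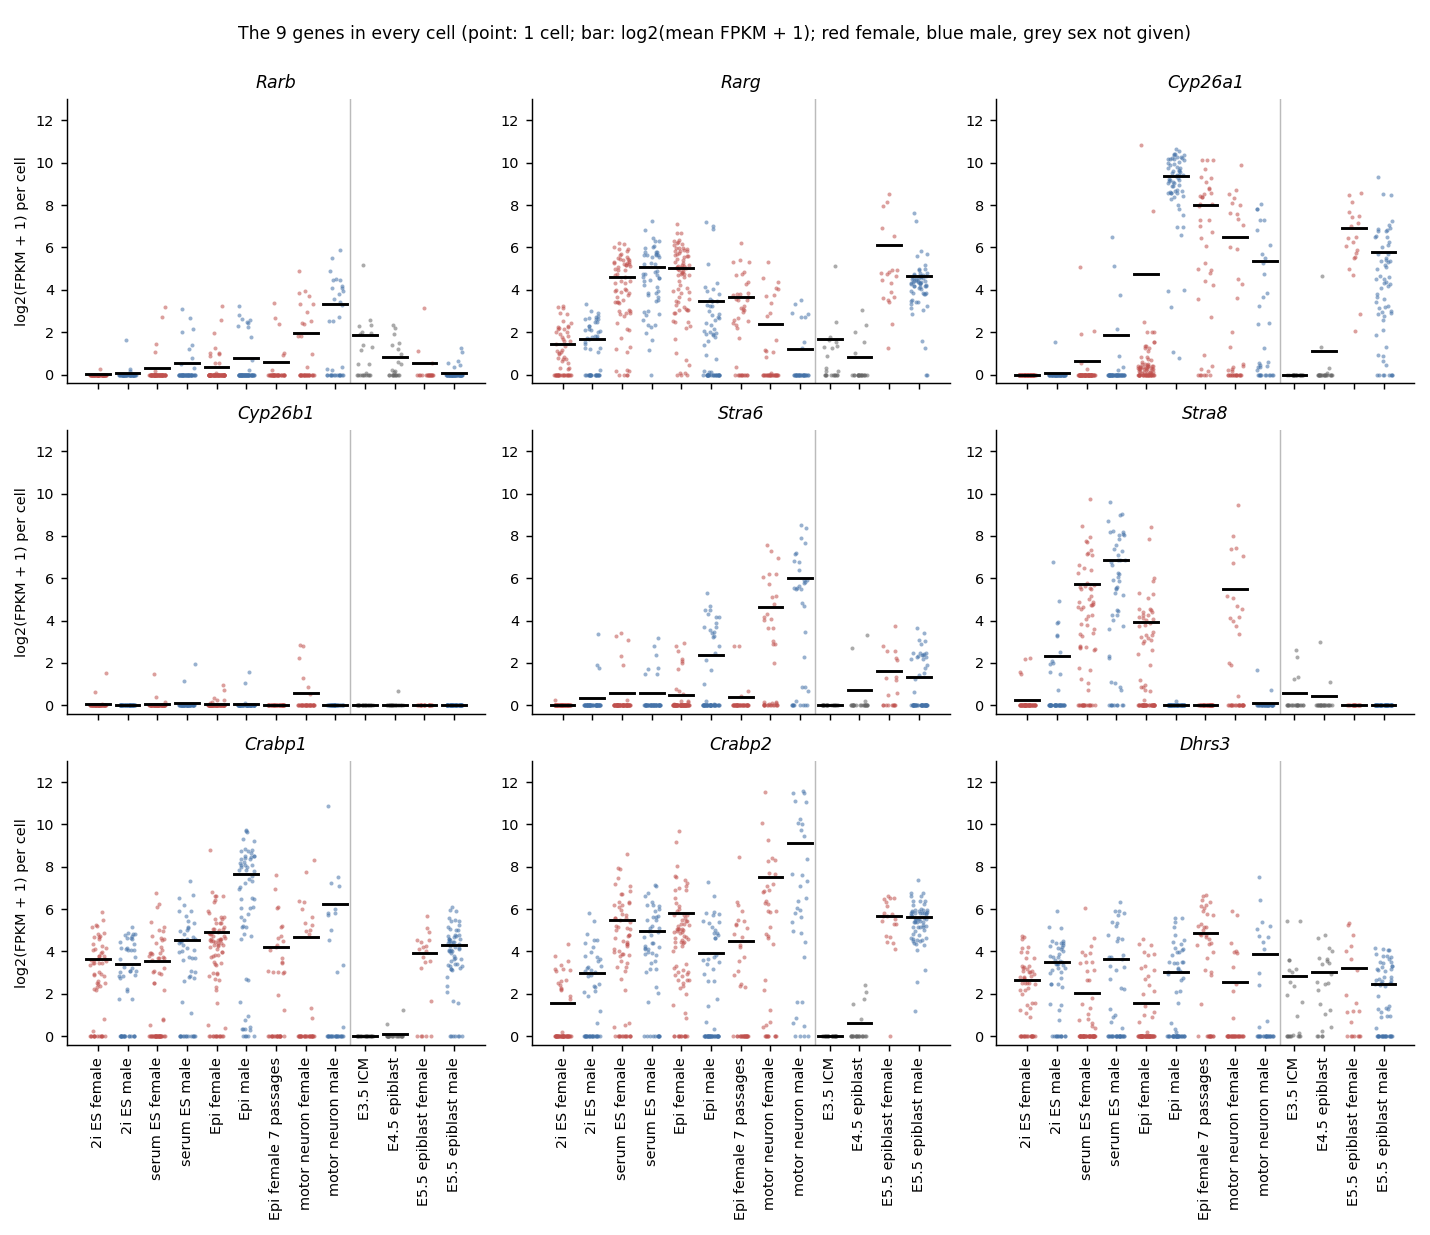
Each panel plots log2(FPKM + 1) in single cells (points) for 1 gene over the 13 groups, cultures to the left and embryo stages to the right of the grey line, with bars at the log2 of the mean FPKM + 1. Cyp26a1 is high in nearly every male Epi cell (mean 672 FPKM) and in part of the motor neuron cells, Stra6 averages 24.04 and 64.4 FPKM in motor neuron cells and at most 4.16 elsewhere, and Cyp26b1 is near 0 throughout.

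**Figure D2:**
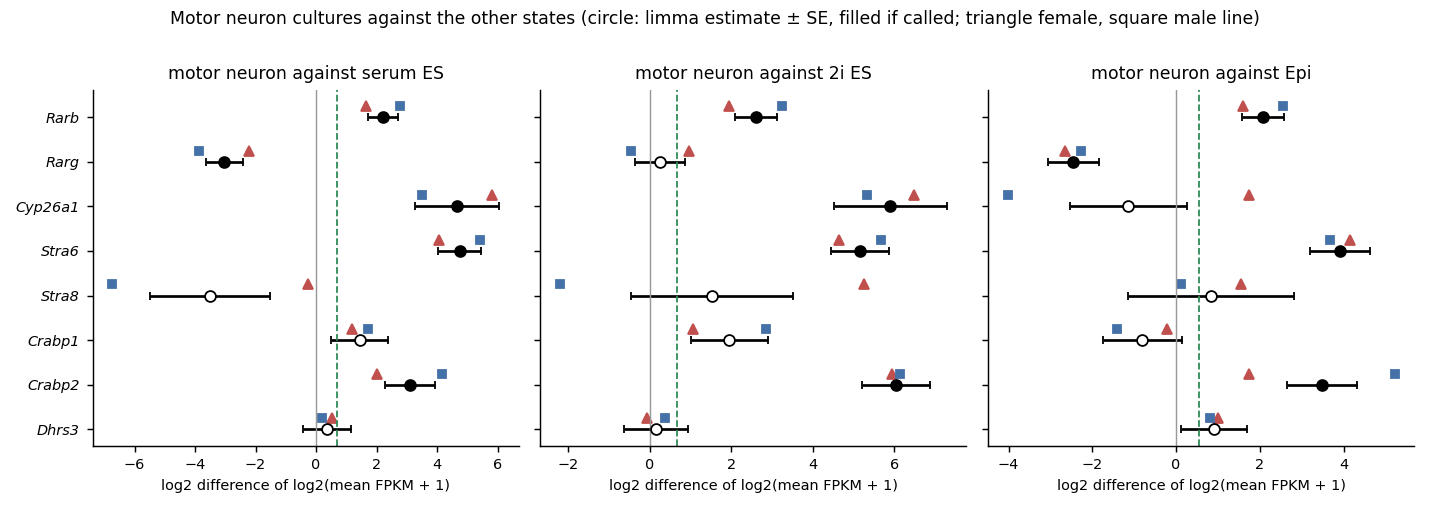
Circles give limma's log2 change with its SE for the 8 tested genes in the motor neuron cultures against each other state (x axis, log2 units), filled where called, with the difference within the female (triangle) and male (square) line above each and the median of all genes dashed. Stra6, Crabp2 and Rarb lie to the right in all 3 panels, while the 2 lines lie far apart on opposite sides of 0 for Cyp26a1 against Epi and for Stra8 against 2i.

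Rarb (chr14:16430839-16819156, minus strand, GRCm38 with GENCODE, as for the positions that follow) encodes retinoic acid receptor beta, whose own gene is a known target of the signal. Its mean was 2.90 FPKM in the female and 9.02 in the male motor neuron culture, 0.242 and 0.453 in serum, 0.00325 and 0.0469 in 2i, and 0.285 and 0.703 in Epi. The motor neuron cultures did not overlap any other culture, and the 7-passage culture averaged 0.516. At least 1 FPKM was reached in 12 of 39 female and 17 of 35 male motor neuron cells (30.8%, exact 95% interval 17.02 to 47.6, and 48.6%, 31.4 to 66.01), against 4 of 68 and 6 of 52 serum cells. Rarb rose by 2.22 on the log2 scale against serum (SE 0.51, limma adjusted p = 0.0184), which is 1.51 above the median of all genes, by 2.61 against 2i (adjusted p = 0.0105) and by 2.08 against Epi (adjusted p = 0.0283). The call against serum was lost without the female serum culture (log2 change 2.11), without the male one (2.33) and in a fit of only the 4 cultures compared (limma adjusted p = 0.0720). That against 2i was lost when either 2i culture was left out. Without the male motor neuron culture Rarb did not pass the low-value filter and was not tested. The call against Epi was lost in 11 of 19 alternatives, with adjusted p from 0.0569 to 0.147, among them both scalings and the omission of any 1 of the 6 ES and Epi cultures.

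Rarg (chr15:102234938-102257517, minus strand) encodes retinoic acid receptor gamma, the receptor that is prominent in pluripotent cells. It averaged 23.1 FPKM in female and 33.1 in male serum cells, 1.69 and 2.18 in 2i, 31.8 and 10.2 in Epi, and 4.22 and 1.33 in the motor neuron cultures. Both serum cultures were above both motor neuron cultures, while the 2i and motor neuron cultures overlapped. In the male Epi culture 3 cells held 60.6% of the sum, and the median there was 2.43 FPKM. Rarg fell by 3.04 against serum (SE 0.61, limma adjusted p = 0.0123) and by 2.46 against Epi (SE 0.61, adjusted p = 0.0301). The first call was lost without the female serum (adjusted p = 0.0601), male serum (0.0787) or male motor neuron culture (0.0628). The call against Epi was lost in 10 of 21 alternatives, with adjusted p from 0.0612 to 0.167, among them the omission of any 2i or serum culture, of female Epi or of the male motor neuron culture. Between serum and 2i, where no retinoic acid was added to either, the log2 difference was 3.29 (SE 0.61, limma p = 0.00133, adjusted p = 0.138), and 0.0378 after adjustment with the 7-passage culture in the fit.

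Crabp2 (chr3:87948666-87953376, plus strand) encodes the binding protein that passes retinoic acid to the receptors. It averaged 183.3 FPKM in the female and 562 in the male motor neuron culture, 44.2 and 30.4 in serum, 1.99 and 6.93 in 2i, and 54.5 and 14.0 in Epi. The 2 motor neuron cultures were the highest and the 2 cultures in 2i the lowest of the 8. In the female motor neuron culture 3 cells held 64.4% of the sum, and the median was 34.6 FPKM against 20.2 in female serum cells. Crabp2 rose by 3.10 against serum (SE 0.83, limma adjusted p = 0.0308), by 6.05 against 2i (SE 0.83, adjusted p = 0.00370) and by 3.48 against Epi (SE 0.83, adjusted p = 0.0268). The call against 2i held in 21 of 21 alternatives. The call against serum was lost in 9 of 21, among them rescaling (adjusted p = 0.0848) and the omission of the female serum (0.105), male serum (0.140) or male motor neuron culture (0.153). The call against Epi was lost in 10 of 21, with adjusted p from 0.0563 to 0.128, among them both scalings and the omission of either serum, the male Epi or the male motor neuron culture.

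Crabp1 (chr9:54764748-54773110, plus strand) encodes the second such binding protein, usually linked to the breakdown of retinoic acid. It averaged 24.9 and 74.9 FPKM in the female and male motor neuron cultures, 10.5 and 22.2 in serum, 11.5 and 9.51 in 2i, and 29 and 199.7 in Epi. One male motor neuron cell at 1854 FPKM held 70.7% of that culture's sum, and the other cells averaged 22.6. Fewer motor neuron cells reached 1 FPKM (30.8% and 34.3%) than serum cells (47.1% and 73.1%), although the means were higher. The log2 difference from serum was 1.44 (SE 0.95, limma adjusted p = 0.268), and it was -0.67 when log2 values were averaged over cells. Against serum, Epi cells differed by 2.25 (SE 0.95, adjusted p = 0.727), with the male culture holding the high values, and by 1.90 with the 7-passage culture (adjusted p = 0.354).

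Stra6 (chr9:58063788-58153996, plus strand) encodes the membrane receptor that takes up retinol from its serum carrier. The mean was 24.04 FPKM in the female motor neuron culture and 64.4 in the male one, 0.482 and 0.511 in serum, 0.00291 and 0.284 in 2i, and 0.403 and 4.16 in Epi. The 7-passage culture averaged 0.317. Both motor neuron cultures stood above all others, the next being male Epi, in which 19 of 63 cells (30.2%) reached 1 FPKM. Stra6 rose by 4.76 against serum (SE 0.71, limma adjusted p = 0.00538), 4.05 above the median of all genes, by 5.16 against 2i (adjusted p = 0.00374) and by 3.91 against Epi (adjusted p = 0.0123). The calls against serum and against 2i held in 21 of 21 alternatives, with adjusted p from 0.00409 to 0.0437 and from 0.00287 to 0.0376. The call against Epi was lost without the male motor neuron culture (adjusted p = 0.0556) and in a fit of only the 4 cultures compared (0.113).

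Cyp26a1 (chr19:37697798-37701536, plus strand) encodes the main retinoic acid hydroxylase of the early embryo. It averaged 88.6 FPKM in the female and 40.5 in the male motor neuron culture, 0.576 and 2.67 in serum, and 0 and 0.0366 in 2i. In Epi the means were 25.9 (female) and 672 (male), and the 7-passage female culture averaged 251.9. The male Epi culture was the highest of the 13 groups, with 62 of 63 cells at 1 FPKM or more. In the female Epi culture 1 cell at 1803 FPKM and 1 at 210.45 held 88.01% and 10.3% of the sum, and the other cells averaged 0.457 FPKM. Zfp42 was 0 and 2.31 FPKM in those 2 cells, and Fgf5, a marker of primed cells, was 148.9 and 25.7. Cyp26a1 rose by 4.66 against serum (SE 1.39, limma adjusted p = 0.0422) and by 5.90 against 2i (SE 1.39, adjusted p = 0.0196). The serum call was lost in 11 of 21 alternatives, among them leaving out any of the 2i, serum or motor neuron cultures (adjusted p from 0.0803 to 0.187), both scalings (0.0811 and 0.0857) and averaging log2 values over cells (2.48, 0.421). The call against 2i was lost in 7 of 21, among them the omission of either 2i or either motor neuron culture (adjusted p from 0.0693 to 0.101).

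Motor neuron and Epi cells could not be ordered for Cyp26a1 with the first female Epi culture: the log2 difference was 1.73 in the female line and -4.02 in the male line, and the fitted one -1.14 (limma adjusted p = 0.575). With the 7-passage culture Cyp26a1 was lower in motor neuron cells by 2.76 (adjusted p = 0.0225), and 5 of 8 genes were called, beside 25.1% of 15447 genes. The other 4 were Stra6 (3.96, adjusted p = 0.0111), Crabp2 (4.12, 0.00756), Rarb (1.96, 0.0279) and Rarg (-1.76, 0.0259), the same 4 as with the first female culture. Between Epi and serum none of the 8 genes was called by limma (1 had an unadjusted p under 0.05), beside 0.0387% of all genes. Cyp26a1 had the difference of 5.81 there (SE 1.39, p = 0.00504, adjusted p = 0.712). With the 7-passage culture it rose by 7.42 (adjusted p = 0.00406) and was the 1 gene of 8 called, beside 5.49% of all genes (2.94% higher). It was also called without the female Epi culture (8.13, adjusted p = 0.0131).

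Cyp26b1 (chr6:84571414-84593908, minus strand), the sister enzyme, was close to undetected. Its mean reached 0.478 FPKM in female motor neuron cells, where 4 of 39 were at 1 FPKM or more, and was at most 0.0784 in the other cultures. It was listed at 0 in all male motor neuron, male 2i and 7-passage cells, and 0 of 35 male motor neuron cells allow a share of up to 10.0% (exact 95% interval).

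Dhrs3 (chr4:144892827-144928209, plus strand) encodes a retinal reductase that lowers the supply of retinoic acid. It averaged 4.96 and 13.6 FPKM in the female and male motor neuron cultures, 3.14 and 11.7 in serum, 5.28 and 10.2 in 2i, and 1.97 and 7.27 in Epi. The male culture was above the female one in all 4 states, a difference with 1 culture per arm and no test. The 7-passage culture had the highest mean of the 13 groups, 27.8 FPKM. Against serum the log2 difference in motor neuron cells was 0.37 (SE 0.78, limma adjusted p = 0.740), below the median of all genes, and its sign was negative under both scalings (-0.04 and -0.63).

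Stra8 (chr6:34920163-34939344, plus strand), a retinoic acid target best known for the entry of germ cells into meiosis, followed another pattern. It averaged 52.6 FPKM in female and 115.2 in male serum cells, 44.04 and 0.0812 in the motor neuron cultures, 0.183 and 3.97 in 2i, and 14.3 and 0.00263 in Epi. Both serum cultures lay above the other 6, as did 2.38% of all genes. It was listed at 0 in all 41 cells of the 7-passage culture. Female motor neuron cells reached 1 FPKM in 17 of 39 and male ones in 1 of 35. Against serum the log2 difference was -0.25 in the female and -6.75 in the male line, and limma gave -3.50 (SE 1.98, adjusted p = 0.210). With log2 values averaged over cells it was called (-2.997, adjusted p = 0.0443). Serum and 2i differed by 5.02 (SE 1.98, p = 0.0421, adjusted p = 0.463). In that comparison none of the 8 genes was called by limma (3 had an unadjusted p under 0.05), beside 0.0193% of all genes, and with the 7-passage culture in the fit only Rarg was, beside 0.738% (0.214% higher). Of the germ cell markers Ddx4, Dazl, Sycp3 and Mael, 4 of 4 averaged at least 1 FPKM in both serum cultures, in female Epi, in female motor neuron cells and in male 2i, against 1 in male motor neuron cells and 0 in male Epi and 7-passage cells. Their summed level had a median of 36.4 (range 0.524 to 260) and 36.9 (0.358 to 266.8) FPKM in female and male serum cells and of 0 in both motor neuron cultures (highest 83.3 and 117.6). In female 2i cells 3 of 4 averaged at least 1 FPKM (median sum 10.95), with Stra8 at 0.183 on average. At day 5.5, 3 of 4 did so in both sexes (median sums 20.2 female and 13.5 male), where Stra8 was listed at 0 in all cells. The part of these markers in the Stra8 values was not tested.

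Sample titles carry numbers that fall into 2 runs in most cultures, whose meaning the labels do not give. In male serum cells Stra8 averaged 7.70 FPKM over the 13 cells of the lower run and 151.01 over the 39 of the higher, and Rarg 14.1 and 39.5. In male motor neuron cells Crabp2 averaged 802 (20 cells) and 241.5 (15 cells) and Stra6 85.8 and 36. In a fit on cells of the higher run 3 of the 9 genes were called against serum, beside 28.3% of all genes. In a fit on the lower run 5 were called, beside 29%. The 68 female serum cells form a single run and entered both fits whole, so the 2 fits share that culture.

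Beyond the 9 genes, 9 of 20 tested genes of a 23-gene retinoid pathway list rose against serum and 0 fell (limma; 0 also fell at an unadjusted p under 0.05), beside 30.1% of all genes higher and 2.7% lower. The list's median log2 change was 1.35, beside 0.71 for all genes. The list was chosen with earlier results of these data known, so these values describe it and test nothing. Among enzymes of synthesis, Rdh10, which oxidises retinol to retinal, averaged 11.7 and 9.84 FPKM in the female and male motor neuron cultures and 2.02 and 1.63 in serum. It rose by 2.06 (SE 0.31, limma adjusted p = 0.00537). This call was lost under upper-quartile scaling (1.11, adjusted p = 0.106) and in the lower run of title numbers (1.53, adjusted p = 0.0629). Aldh1a1, a retinal dehydrogenase, averaged 7.63 and 4.56 against 0.0360 and 0.00387, with a log2 difference of 2.76 (SE 0.36, adjusted p = 0.00405). Aldh1a1 and Rbp2 passed the low-value filter only through the motor neuron cultures, so their place among the genes tested depends on being high there. With log2 values averaged over cells their changes were 0.87 and 0.80, under the size of 1 that a call required. Aldh1a2, the main dehydrogenase of the embryo, averaged 2.43 and 4.73 against 0.586 and 0.364, a difference of 1.59 (SE 0.56) that was not called (adjusted p = 0.0672). The carriers Rbp4 (3.31), Rbp2 (2.56) and Fabp5 (3.33) and the cofactors Ncoa1 (1.57), Ncoa2 (1.5) and Nrip1 (1.52) rose as well, though the calls of Ncoa1, Ncoa2 and Nrip1 were lost under both scalings and without either serum culture, and that of Rbp4 without the female serum culture (adjusted p = 0.0895), under upper-quartile scaling (2.46, adjusted p = 0.0639) and in a fit of only the 4 cultures compared (adjusted p = 0.0769). Rara, the receptor found in most tissues, averaged 11.5 and 10.1 FPKM against 15.2 and 16.6 in serum, with a difference of -0.52 that was not called (adjusted p = 0.327). Against 2i, 6 of 20 rose and 0 fell, which is near the 29.6% of all genes that were higher. Against Epi 5 rose, near the 21.9% of all genes, and 1 fell, Rxrg, a retinoid X receptor, by 2.07 (SE 0.57, adjusted p = 0.0410). That call was lost in 11 of 20 alternatives, among them the omission of any 2i, serum, motor neuron or male Epi culture (adjusted p from 0.0555 to 0.118). With the 7-passage culture in place of female Epi, Rxrg fell by 2.71 (adjusted p = 0.00293), and 4 genes of the list rose, beside 22% of all genes. The count of 9 against serum ranged from 3 to 10 over the alternatives, with 3 under upper-quartile scaling (beside 9.47% of all genes higher), 5 with rescaled cells (14.2%) and 5 without the female or the male serum culture (9.99% and 11.5%).

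Of 16 other genes known as retinoic acid targets, 14 were tested and 11 rose against serum, beside 30.1% of all genes, none falling by limma or at an unadjusted p under 0.05. The median log2 change was 3.28. This list too was chosen with earlier results of these data known, so these values describe it and test nothing. The 3 with the largest called change were Hoxb5 (5.56, SE 0.44), a positional gene of the hindbrain and spinal cord, Meis1 (5.44, SE 0.41) and Meis2 (4.77, SE 1.04), cofactors of Hox proteins. The call of Meis2 was lost without any 1 of the 4 serum and motor neuron cultures (adjusted p from 0.0539 to 0.0940). Hoxb5 averaged 39.9 and 92.7 FPKM against 0.241 and 0.3804 in serum, and Meis1 52.4 and 97.4 against 0.608 and 0.740. Hoxb1 (3.09 and 0 FPKM against 0.319 and 0.738) and Cdx1 (1.05 and 0 against 0.806 and 1.06), known as early targets, were not called. Against 2i, 9 rose and 1, Cdx1, fell, beside 29.6% and 3.96% of all genes. Against Epi 9 rose and 0 fell, beside 21.9% and 2.6%, and 9 also rose with the 7-passage culture in place of female Epi (22%). The count of 11 against serum was 7 without the female serum culture, beside 9.99% of all genes higher. Of the 14 genes of the tables with a DR5 repeat in a promoter, 6 were tested, and Cyp26a1, Rarb and Syndig1 (12.8 and 48.6 FPKM against 1.56 and 1.08) rose while Gm14133 (36.1 and 29.4 against 102.99 and 119.6) fell. The 6 were evenly split against 2i, with 3 higher and 3 lower, and against Epi 1 was higher and 2 lower. Many of the listed targets are near 0 outside the motor neuron cultures and passed the low-value filter through them.

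**Figure D3:**
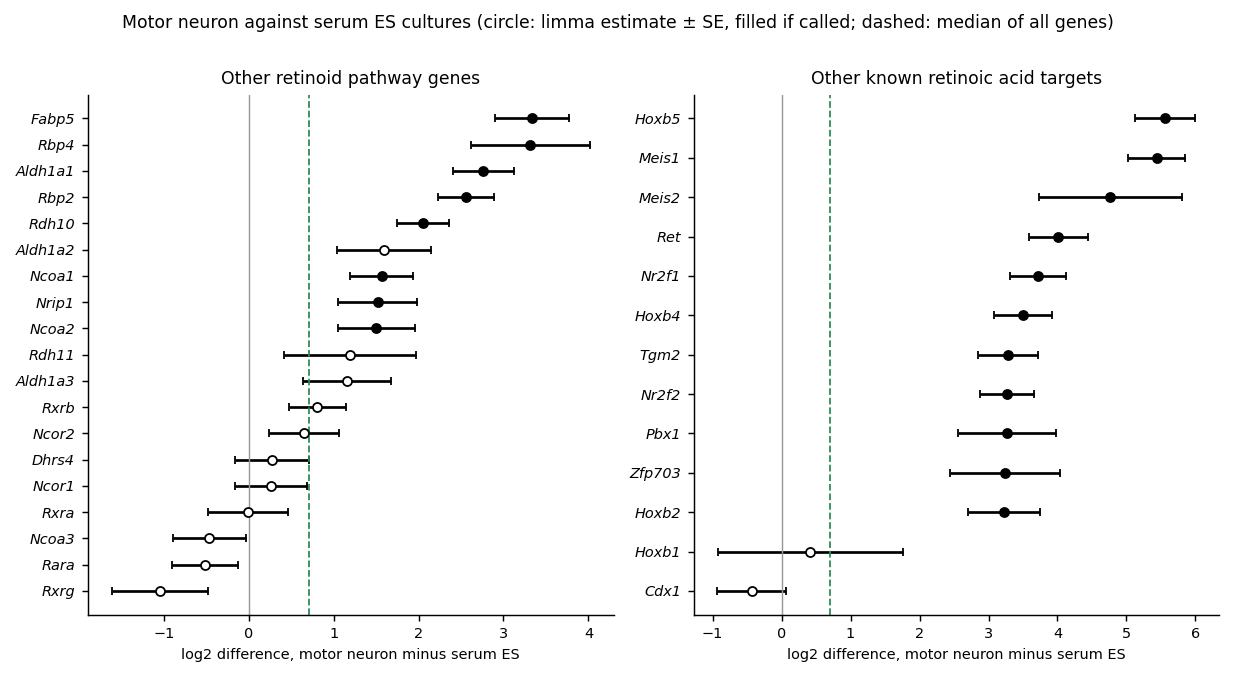
Circles give limma's log2 change with its SE in motor neuron against serum ES cultures (x axis) for tested genes of the retinoid pathway list (left) and of the list of known targets (right), filled where called, with the median of all genes dashed. The called targets lie between 3.23 and 5.56, and the called pathway genes shown between 1.5 and 3.33.

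Cells of the motor neuron cultures were divided by the marker list on which they scored highest. Of 39 female cells, 20 scored highest on the neuron list, 13 on endoderm and 6 on pluripotency. Of 35 male cells 22 scored highest on neuron and 13 on endoderm, none on pluripotency. These are ranges of a score and not types, 3 male cells lay near a border, and cells of 1 culture are not replicates, so the values that follow are descriptions. Median genes at 1 FPKM or more were 9348 and 9774 in neuron-scoring and 8847 and 8964 in endoderm-scoring cells (female and male).

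Cyp26a1 and Stra6 were mostly in endoderm-scoring cells. Cyp26a1 reached 1 FPKM in 13 of 13 female and 9 of 13 male endoderm-scoring cells, with means of 263.1 and 81.3 FPKM, and in 2 of 20 and 8 of 22 neuron-scoring cells, with means of 1.54 and 16.4. Stra6 did so in 12 of 13 and 13 of 13 (means of 60.4 and 123.2) against 6 of 20 and 9 of 22 (6.94 and 29.7). Without the 3 male cells near a border, the male neuron-scoring mean of Stra6 was 15.4 FPKM. The order was the same in both lines, while the groups of cells overlapped. Rarb reached 1 FPKM in 5 of 13 female and 10 of 13 male endoderm-scoring cells and in 6 of 20 and 7 of 22 neuron-scoring cells, which is 38.5% and 76.9% against 30% and 31.8%. Dhrs3 likewise was detected in 9 of 13 male endoderm-scoring cells (mean 35.7) against 2 of 22 neuron-scoring ones, and in 3 of 13 against 3 of 20 in the female. Without the border cells the male endoderm-scoring mean of Dhrs3 was 23.5 FPKM.

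The binding proteins lay on the other side. Crabp2 reached 1 FPKM in 17 of 20 female and 22 of 22 male neuron-scoring cells, with means of 327 and 886 FPKM, and in 5 of 13 and 6 of 13 endoderm-scoring cells, with means of 9.95 and 12.9 (7.17 in the male without the border cells). Crabp1 was at 1 FPKM or more in 7 of 20 and 11 of 22 neuron-scoring cells and in 0 of 13 and 1 of 13 endoderm-scoring cells. Both binding proteins were also in 5 of the 6 pluripotency-scoring cells. The pluripotency-scoring cells of the female culture held most of its Stra8 (6 of 6 cells, mean 229.5 FPKM) and had the highest mean of Rarg (4 of 6, 15.0), while 8 of 20 female neuron-scoring cells also held Stra8. Among other pathway genes and targets, Fabp5 (means of 121.96 and 148.8 FPKM in neuron-scoring against 5.01 and 5.57 in endoderm-scoring cells) and Hoxb5 (77.2 and 146.9 against 0.210 and 0.873) were highest in the same class as Crabp2. Not all went that way. The target Zfp703 was in 12 of 20 and 14 of 22 neuron-scoring and in 11 of 13 and 11 of 13 endoderm-scoring cells. Its means were 11.05 and 4.57 FPKM in the former and 14.5 and 12.8 in the latter. Aldh1a1 was in 4 of 20 and 1 of 22 neuron-scoring and in 5 of 13 and 4 of 13 endoderm-scoring cells. Rdh10 was in 9 of 20 and 10 of 22 neuron-scoring and in 8 of 13 and 9 of 13 endoderm-scoring cells. Aldh1a2 was in 4 of 20 and 3 of 22 neuron-scoring cells and in 0 of 13 endoderm-scoring cells of each line.

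**Figure D4:**
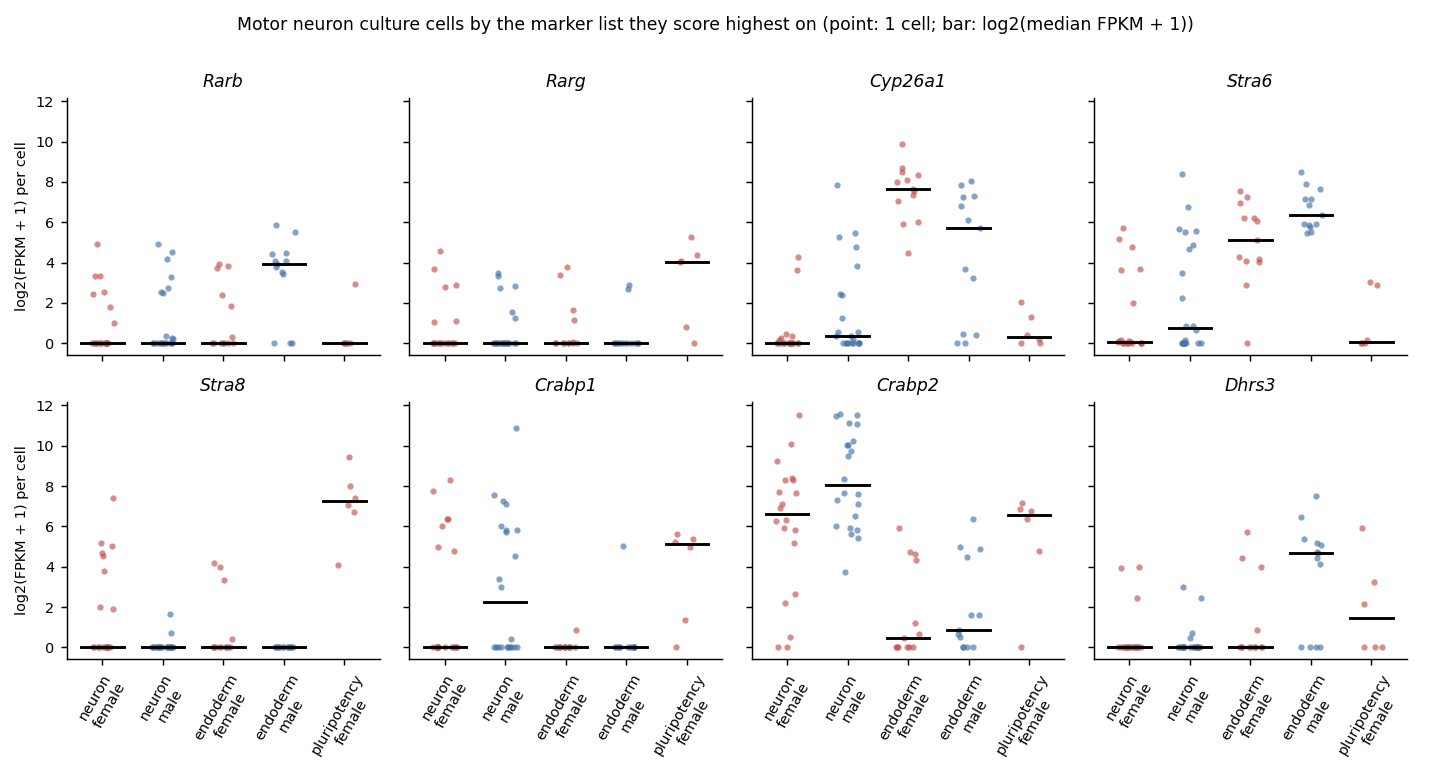
Points are single motor neuron culture cells (y axis, log2(FPKM + 1)) by the marker list they scored highest on and by line, with bars at the median. Cyp26a1 and Stra6 are highest in endoderm-scoring cells, Crabp2 in neuron-scoring cells, and Stra8 in the 6 pluripotency-scoring female cells.

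Cell by cell, Spearman's rho between Cyp26a1 and Stra6 was 0.48 in the 39 female and 0.56 in the 35 male cells, between Cyp26a1 and Crabp2 -0.44 and -0.43, and between Crabp1 and Crabp2 0.51 and 0.42. Among 11981 genes, those most like each gene in both lines were Pdgfra (0.75 and 0.73), Pdpn (0.73 and 0.71) and Rffl (0.70 and 0.72) for Cyp26a1, and Srgn (0.67 and 0.81), Pcbd1 (0.66 and 0.73) and Slc16a1 (0.65 and 0.79) for Stra6. For Crabp2 they included Kctd15 (0.65 and 0.74) and Hspa12a (0.65 and 0.64). For Rarb, Rarg, Crabp1 and Dhrs3 the highest values lay between 0.42 and 0.58. Cells of a culture share their source and differ in genes detected, and these values carry no test.

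In the embryo, Cyp26a1, Crabp1, Crabp2 and Rarg had low values at day 3.5 and 4.5 and higher ones at day 5.5. Cyp26a1 was listed at 0 in all 23 cells at day 3.5 (a share of up to 14.8%, exact 95% interval), averaged 1.13 FPKM at day 4.5 with 2 of 23 cells at 1 FPKM or more, and 121.3 (female) and 54.1 (male) at day 5.5 with 20 of 20 and 51 of 63 cells. Crabp2 was listed at 0 at day 3.5, averaged 0.546 FPKM at day 4.5, and 49.9 and 48.04 at day 5.5, where 19 of 20 and 63 of 63 cells held it. Crabp1 averaged 0, 0.0799, 14.4 and 18.8 FPKM in the same order. Rarg averaged 2.19, 0.757, 68.6 and 24.2. At day 5.5 its medians were closer (25.2 and 19.2), since 3 of the 20 female cells held 65.1% of the sum. Median FPKM sums per cell were 612768 at day 3.5, 511794 at day 4.5, and 1027092 (female) and 995182 (male) at day 5.5, and these values were not rescaled. Each stage was taken as 1 sample, the stages come from 2 tables, and day 5.5 also differs in strain, so stage, table and cross cannot be told apart. Titles of the day 3.5 and 4.5 cells carry several leading numbers and differ in format. These were not used, so any grouping of cells within or between these stages was not examined.

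Stra6 at day 5.5 averaged 2.03 and 1.56 FPKM and was listed at 0 in all cells at day 3.5. Rarb ran the other way, with 10 of 23 cells at day 3.5 (mean 2.70, of which 1 cell held 57.01%), 6 of 23 at day 4.5 (0.758), and 2 of 20 and 2 of 63 at day 5.5 (0.466 and 0.0649). Stra8 was detected in 4 of 23 and 2 of 23 cells at the early stages and was listed at 0 in all 83 cells at day 5.5. Dhrs3 averaged 6.26, 7.21, 8.31 and 4.59 FPKM and Cyp26b1 at most 0.0258. Female cells at day 5.5 had higher summed levels of the endoderm list (median 2319 FPKM, range 222.5 to 9705, against 554, 29.3 to 2748, in male cells, with 9 of 10 markers averaging at least 1 FPKM in both) and of the decidua list (49.01 against 5.85 and range 3.58 to 282.4 against 0 to 53.9, with Prl8a2 at 43.8 and 2.95 on average). Rbp4, a carrier that visceral endoderm makes, averaged 353 and 82.2 FPKM. The part of these markers in the higher female mean of Cyp26a1 and Rarg was not tested.

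**Figure D5:**
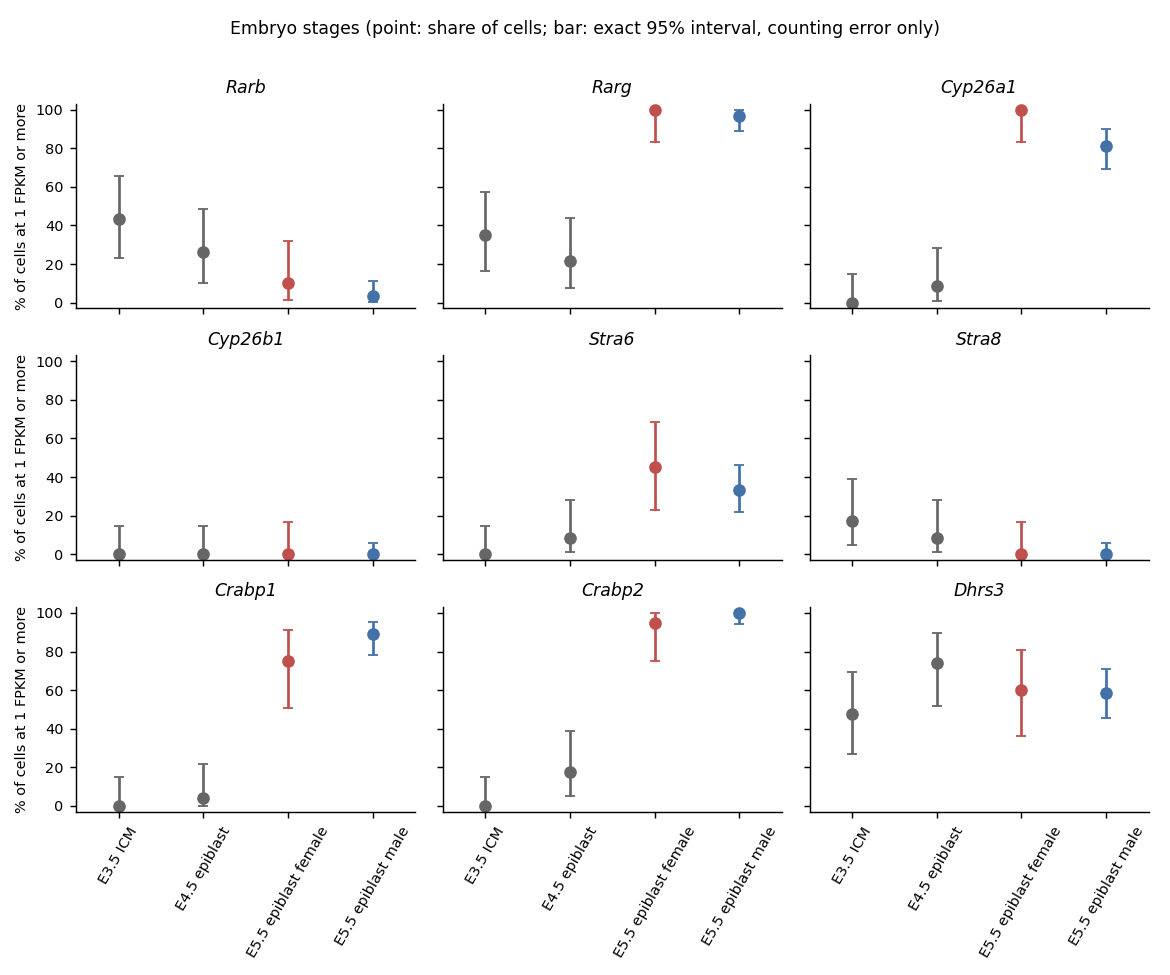
Points give the percentage of cells at 1 FPKM or more for each gene at E3.5, E4.5 and E5.5 (female and male), with exact 95% intervals that cover counting error only. Cyp26a1, Crabp1, Crabp2 and Rarg are at 34.8% or less at the first 2 stages and at 75% or more at E5.5, and Cyp26b1 is at 0% throughout.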

How the data were processed

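FPKM per gene and cell were computed and deposited by the authors in 4 tables normalised separately. The submitters' processing notes name STAR 2.4.1, Cufflinks, Cuffnorm 2.2.1 and mm10. Values were taken as deposited, and 356 values with a low line in the exponent were read as small numbers (9.7552e-05 FPKM at most). Symbols came from GENCODE vM21 and promoters from RefSeq.

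Cultures were summarised as mean FPKM over cells. The 8 cultures of the shared table entered 1 limma fit (version 3.58.1, R 4.3.3, trend = TRUE) on log2(mean FPKM + 1) with 4 residual degrees of freedom, for genes averaging at least 1 FPKM. Calls needed a Benjamini-Hochberg adjusted p under 0.05 over all genes tested and a log2 change of at least 1. The labels name no separate cultures within a line, so p-values measure the spread between 2 lines, which are also the 2 sexes. That spread was pooled over the 4 states, so the gap between the 2 Epi cultures enters every comparison of this fit. Lines recur across states: the difference between lines correlated from state to state at r = 0.061 to 0.16 (Pearson, 15504 genes), and the line as a block was an alternative. On simulated data with 200 changed genes of 15504, log2 changes of 3 were recovered in 58.5% of cases (motor neuron against serum) and of 1.5 in 0%. In the data 5088 genes were called in that comparison. The adjusted threshold was thus stricter in the simulation, and its shares do not give the recovery of the fit to the data.

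Single cultures, embryo stages and classes of cells were described without tests. Each motor neuron cell took the class (neuron, endoderm or pluripotency) with the highest mean log2(FPKM + 1) over that marker list, and cells with the 2 highest scores within 0.5 were near a border. No doublet caller was run. Intervals are exact Clopper-Pearson at 95%. The members, gene lists and markers were chosen with earlier results of these data known. Genes named are the 9 members, the called synthesis enzymes and receptors of the pathway list plus Rara, Aldh1a2 and Rdh10, the 3 largest called targets, and for each member detected in at least 20% of motor neuron cells of each line the 3 genes with the highest smaller rho of the 2 lines. Other carriers, cofactors and targets were named after their values were seen. Of the pathway and target lists, 1 gene each entered the counts and medians and is not reported here.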

Additional observations from a re-analysis of the deposited data

Results flagged for a closer look

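Stra8 in motor neuron against 2i ES cultures stood apart because the lines went opposite ways: the log2 difference was 5.25 in the female line and -2.20 in the male line. Cyp26a1 in motor neuron against Epi cultures did the same, at 1.73 in the female and -4.02 in the male line. Smaller differences of opposite sign between the female and the male line were found for Rarg in motor neuron against 2i (0.96 and -0.45) and in Epi against serum (0.45 and -1.61), and for Stra6 in Epi against serum (-0.079 and 1.77). They were also found for Crabp2 in Epi against serum (0.30 and -1.06) and for Crabp1 in serum against 2i (-0.12 and 1.14). Dhrs3 differed by -0.075 and 0.38 in motor neuron against 2i and by -0.60 and 0.18 in serum against 2i. None of these differences between lines was tested, since there was 1 culture per line and state. In the Epi comparisons the female culture is the one with Zfp42 in 98.7% of cells, and its part in them was not tested.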

How the results depend on the processing

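With 2 cultures per state, the calls depended on single cultures, for the 9 genes and for all genes tested, whose share called is given in brackets. Of the 9 genes, 5 were called in motor neuron against serum ES cultures (32.8%), and 3 with no low-value filter (11.7%), with cells rescaled to a common sum (20.5%), with upper-quartile scaling (21.2%), in a fit of only the 4 cultures compared (18.6%), and in the higher run of title numbers (28.3%). Leaving out 1 culture gave 1 to 5. The count of 1 came without the female serum (10.7%), male serum (12.1%) or male motor neuron culture (24.1%), with Stra6 the gene called each time. Against 2i the count of 4 became 2 to 4, with 2 without the female 2i (12%), male 2i (14.3%) or male motor neuron culture (25.8%). Against Epi the count of 4 (24.5%) became 1 with no filter (8.32%), 2 with rescaled cells (15.8%), with upper-quartile scaling (19.6%) and in the higher run (21.9%), and 0 in a fit of only the 4 cultures compared, in which 0 of 15504 genes were called by limma and 4152 had an unadjusted p under 0.05. Leaving out 1 culture gave 0 to 4 there, with 0 without the male motor neuron culture (18%), 1 without either serum culture (17.1% both times) and 2 without the female 2i (16%), male 2i (15.9%) or male Epi culture (21.2%). For Epi against serum and for serum against 2i the count of 0 became 1 with the 7-passage culture used for female Epi. Leaving out 1 culture gave 0 to 1 for Epi against serum and 0 for serum against 2i. The line as a replicate block gave 5, 4, 4, 0 and 0 calls in the 5 comparisons, in the order given here, so it changed no count. Among the other genes named, it ended the call of Nrip1 (adjusted p = 0.0595).

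The sign of 10 of 800 recomputed log2 changes turned. In motor neuron against serum, Crabp1 was -0.67 with log2 values averaged over cells, and Dhrs3 was -0.14 with that average, -0.041 with rescaled cells, -0.63 with upper-quartile scaling, -0.29 in the higher run, and -0.44 to 1.17 when 1 culture was left out. Stra8 against 2i was -1.17 to 4.22 when 1 culture was left out, and Cyp26a1 against Epi -3.46 to 1.18 then and 0.61 in the higher run. The cause was not tested.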
